A study of Mus musculus with 8 samples.

Results

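The HoxB cluster holds 10 genes on mouse chromosome 11 (GRCm38), Hoxb13, Hoxb9, Hoxb8, Hoxb7, Hoxb6, Hoxb5, Hoxb4, Hoxb3, Hoxb2 and Hoxb1. They are described here by the authors' deposited list of regions at which the histone mark H3K27me3 differed between NNMT-overexpressing and control fibroblasts. The cluster was chosen with earlier results of these data known. Its regions were then taken by position alone, as the listed regions that overlap 96194316 to 96368254. This window runs from the lower end of the RefSeq span of Hoxb13 to the upper end of that of Hoxb1. It overlaps 71 of the 265968 listed regions. A region was assigned to each gene whose span, extended by 2 kb on both sides, it touched. All 10 genes received regions, 43 regions touched at least 1 gene, 11 of these were shared by neighbours and 28 lay in no extended span. The predicted transcripts of Hoxb3 reach past Hoxb4, so every region of Hoxb4 also counts for Hoxb3.

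Hox genes encode homeodomain transcription factors that give cells their position along the body axis. Within a cluster they lie in the order in which they act, with the low-numbered genes used towards the head and the high-numbered ones towards the tail. Polycomb repressive complex PRC2 writes H3K27me3 over silent Hox genes, where the mark spreads into broad domains, and it is removed as a cluster is opened. Fibroblasts keep a Hox code of the body site from which they came.

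The libraries came from 3T3 cells, an immortalised mouse fibroblast line, grown for 48 h in DMEM with 10 µM methionine and 10% dialyzed serum. One group carried a control construct and the other an NNMT overexpression construct, with 3 H3K27me3 libraries and 1 input library in each. NNMT, nicotinamide N-methyltransferase, consumes the methyl donor S-adenosylmethionine, and the comparison addresses where the mark differs when it is overexpressed. Neither the promoter of the construct nor the number of clones is stated in the sources used here. The list carries no names for its 6 values per region, so the libraries are given as set 1 (the 3 listed first) and set 2 (the 3 listed second), in the order of the file. Which set is NNMT is not known, no direction below is tied to it, and values are given per library, without a test. Values per kb are means over all 6 libraries unless a set or library is named. A range over pairs is the lowest and highest ratio over the 9 ways to pair 1 library from each set. It is given for the Hox clusters and the 10 genes, and for other ratios only where stated. Summed over all listed regions the libraries held 39899303 to 41971892 in set 1 and 35565866 to 36958436 in set 2, a ratio of 1.14 or 0.19 on the log2 scale. Sequencing depth is unknown. All library values below are those of the authors' deposited table, and "per kb" means divided by the length of the listed regions only.

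RefSeq promoter sequences (GRCm38.p6, 250 bases before to 50 after a start site, plus strand) matched 3 of the 10 genes, Hoxb8, Hoxb4 and Hoxb1. They are shown because the start of Hoxb4 lies in a region that was higher in set 2, the start of Hoxb8 at the edge of a region higher in set 1 and that of Hoxb1 inside a region higher in set 1. At Hoxb4 and Hoxb1 the sets overlapped in these regions. Capitals mark each CG, the dinucleotide in which the CpG-rich promoters bound by Polycomb complexes abound.
Hoxb8, chr11:96281655-96281954: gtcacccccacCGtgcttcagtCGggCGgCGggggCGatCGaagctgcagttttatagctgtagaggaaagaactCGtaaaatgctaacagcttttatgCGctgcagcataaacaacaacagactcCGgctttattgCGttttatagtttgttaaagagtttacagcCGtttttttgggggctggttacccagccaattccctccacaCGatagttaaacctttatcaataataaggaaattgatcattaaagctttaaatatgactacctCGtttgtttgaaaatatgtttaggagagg
Hoxb4, chr11:96318017-96318316: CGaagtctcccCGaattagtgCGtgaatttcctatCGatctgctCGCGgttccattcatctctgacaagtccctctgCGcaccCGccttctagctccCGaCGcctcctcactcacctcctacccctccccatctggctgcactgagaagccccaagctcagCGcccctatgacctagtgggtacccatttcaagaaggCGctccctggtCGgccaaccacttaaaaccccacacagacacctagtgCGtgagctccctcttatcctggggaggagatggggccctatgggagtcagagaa
Hoxb1, chr11:96365508-96365807: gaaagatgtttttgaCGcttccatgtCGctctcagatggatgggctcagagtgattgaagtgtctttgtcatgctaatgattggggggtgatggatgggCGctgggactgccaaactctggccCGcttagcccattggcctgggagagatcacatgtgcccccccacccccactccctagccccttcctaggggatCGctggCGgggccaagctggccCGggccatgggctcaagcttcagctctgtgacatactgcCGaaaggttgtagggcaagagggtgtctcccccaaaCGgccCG
The windows held 13, 14 and 10 CG, against a median of 7 over 32851 RefSeq promoter windows of the same length, of which 37.9%, 36.3% and 43.5% held at least as many. Listed regions covered 34.7% of the Hoxb8 window and all of the Hoxb4 and Hoxb1 windows.

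A pair of microRNA genes also lies in the cluster, Mir10a beside Hoxb4 and Mir196a-1 between Hoxb13 and Hoxb9. Their mature 5p strands are shown with the seed, bases 2 to 8, in capitals, because values around both genes, within 2 kb, are given below.
miR-10a-5p, chr11:96317186-96317208: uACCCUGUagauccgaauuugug
miR-196a-5p, chr11:96265187-96265208: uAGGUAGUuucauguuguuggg
The miR-10a-5p sequence lies inside a listed region that was higher in set 1 with overlapping sets, and the miR-196a-5p sequence lies in none.

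As deposited, the H3K27me3 values of the cluster were slightly higher in set 1, by about as much as those of the whole list. The 71 regions summed to 47201, 47409 and 46892 in the libraries of set 1 and to 42207, 42292 and 40356 in those of set 2. The sets did not overlap, and the ratio was 1.13 (1.11 to 1.17 over library pairs). The same ratio over the whole list was 1.14, and with libraries rescaled to equal sums over the list the log2 ratio of the cluster turned from 0.18 to -0.01. Of the 71 regions, 52 were higher in set 1 (73.2%, against 59.5% of all listed regions). All 3 values of set 1 lay above those of set 2 in 27 regions (38.0%, against 40.5% of all listed regions), and the reverse held in 7 (9.86%, against 24.7%). A ratio of at least 2-fold towards set 1 was reached by 1 region, or 1.41%, against 22.3% of the list.

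The regions of the cluster were long and strongly marked compared with the list. Their median length was 1050 bp, against 450 bp over the list, and their median value was 328 per kb and library, against 141. The median percentile of a HoxB region in value per kb was 99.3. Listed regions covered 76.2% of the 174 kb, and the longest stretch without one was 4200 bp (96240351 to 96244550). Ratios were also set side by side for regions of large values. Among regions with a summed value of at least 1000, a limit set after the data were seen, the median ratio towards set 1 was 1.18 for 46 HoxB regions and 1.35 for all 38322. Of the 57 HoxB regions above that limit 80.7% were higher in set 1, against 64.5% of the list.

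**Figure D1:**
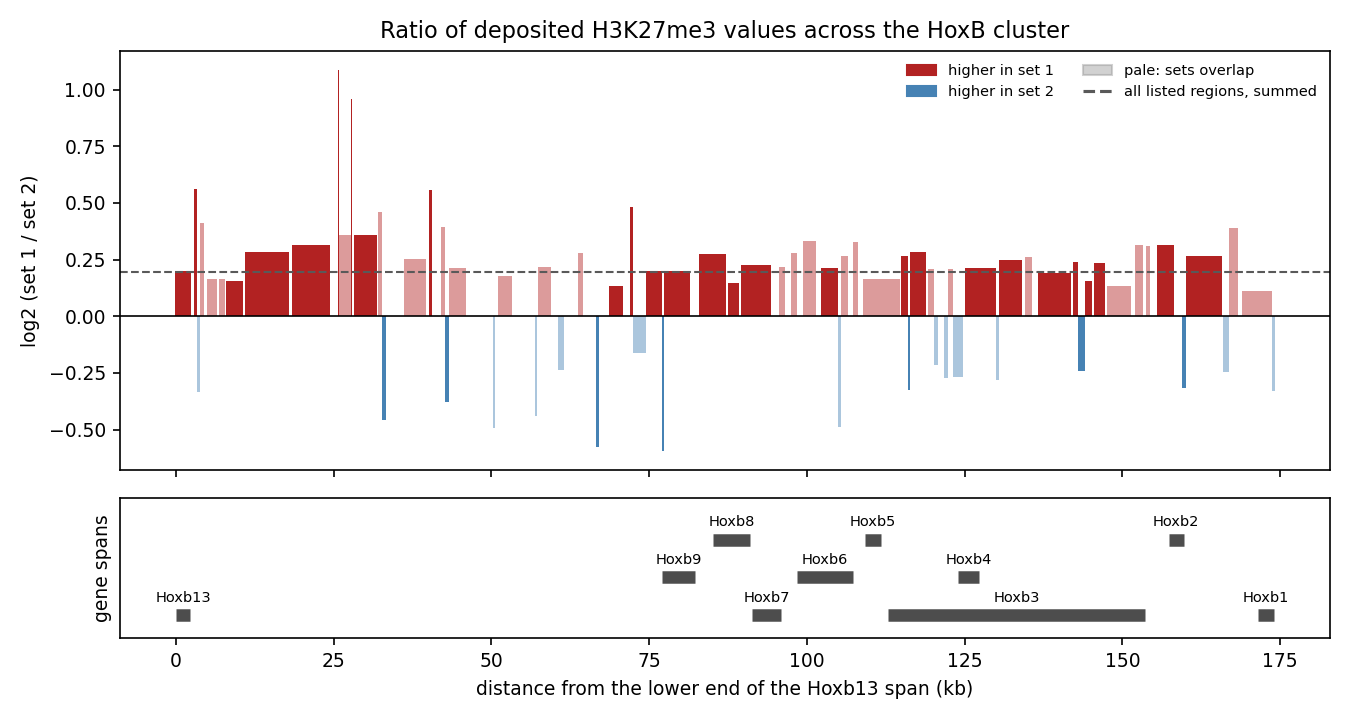
Log2 ratio of set 1 over set 2 for the 71 listed regions (upper panel, bar width equal to region length, pale where the libraries of the sets overlap) and the spans of the 10 genes (lower panel), against distance in kb from the lower end of Hoxb13. Broad bars higher in set 1 stand near the dashed line of the whole list (0.19), and the 19 bars higher in set 2 are short.

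Hoxb13 and Hoxb9 are the posterior members, used towards the tail, and Hoxb13 stands apart from the rest behind an interval of 74.7 kb. At Hoxb13 (span 96194316 to 96196610) 4 regions summed to 1983, 1842 and 1787 in set 1 and 1738, 1486 and 1570 in set 2. The sets did not overlap, and the ratio was 1.17 (1.03 to 1.33 over pairs). Its longest region, 2550 bp over the whole gene (96194251 to 96196800), held 1234, 1188 and 1125 against 1114, 986 and 985. A set 2 region of 500 bp followed beyond the gene (96197701 to 96198200) with 145, 156 and 138 in set 1 and 203, 156 and 195 in set 2. At 156 a library of each set met, so these values touched. The rule leaves out 1 region just below the window that also comes within 2 kb of the gene, and with it the ratio was 1.16.

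At Hoxb9, the most posterior gene of the contiguous part (span 96271330 to 96276595), 4 regions summed to 4673, 4738 and 4725 in set 1 and 4133, 4135 and 3948 in set 2. The ratio was 1.16 and its range over pairs, 1.13 to 1.20, was the narrowest of the 10 genes. The longest region (96277251 to 96281500, shared with Hoxb8) held 1822, 1717 and 1644 against 1485, 1450 and 1348. The lowest ratio of the cluster also fell here, in a region of 350 bp that begins 71 bp above the lower end of the Hoxb9 span (96271401 to 96271750). It held 79, 63 and 76 in set 1 and 115, 116 and 99 in set 2, a ratio of 1.51 towards set 2 (1.25 to 1.84 over pairs), and the sets did not overlap. The regions that abut it on both sides were higher in set 1.

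Hoxb8, Hoxb7, Hoxb6 and Hoxb5 are the central members, which pattern the trunk. Hoxb8 (span 96279401 to 96285325) summed to 4272, 3862 and 4085 in set 1 and 3447, 3511 and 3441 in set 2, a ratio of 1.18 (1.10 to 1.24 over pairs). All 3 of its regions had every set 1 value above set 2. Hoxb7 (span 96285604 to 96290163), which has no region of its own, summed to 2550, 2540 and 2786 against 2204, 2269 and 2230, a ratio of 1.17 (1.12 to 1.26 over pairs). The longest region of both genes, which they share (96283951 to 96288550), held 1755, 1517 and 1755 against 1363, 1462 and 1478.

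Hoxb6 (span 96292814 to 96301569) carried 8 regions that summed to 6114, 6408 and 6306 in set 1 and 5498, 5556 and 5168 in set 2, a ratio of 1.16 (1.10 to 1.24 over pairs). Although the sums did not overlap, this was so for only 1 of the 8 regions taken singly. The 1 region of Hoxb6 higher in set 2 (96299301 to 96299650) held 56, 76 and 71 against 90, 133 and 62, and there the sets overlapped. Hoxb5 (span 96303512 to 96306121) had 2 regions, both shared, with sums of 2701, 2705 and 2833 against 2464, 2608 and 2161 and a ratio of 1.14 (1.04 to 1.31 over pairs). The libraries of set 1 lay above all of set 2 in the sum and in neither region. The region of 5800 bp that covers Hoxb5 and reaches Hoxb6 and Hoxb3 (96303201 to 96309000) held 2299, 2295 and 2475 in set 1 and 2103, 2302 and 1896 in set 2, with 1 library of set 2 inside the range of set 1.

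Hoxb4, Hoxb3, Hoxb2 and Hoxb1 are the anterior members, expressed up to the hindbrain, where Hoxb1 marks a single segment. Hoxb4 (span 96318267 to 96321638) was one of a pair of genes at which the sets overlapped. Its 4 regions summed to 2868, 2942 and 2622 in set 1 and 2685, 2761 and 2513 in set 2, a ratio of 1.06 (0.950 to 1.17 over pairs). The gene was split in direction. The region of 1650 bp that holds its start and the whole promoter window shown above (96317401 to 96319050) had 517, 416 and 416 in set 1 and 513, 592 and 521 in set 2, a ratio of 1.21 towards set 2 (0.992 to 1.42 over pairs). A set 2 region also lay upstream (96316001 to 96316650), with 190, 266 and 174 against 267, 236 and 258. The next region (96319351 to 96324300) covers most of the gene body and runs on past its end at 96321638. It had 1845, 1892 and 1729 against 1584, 1676 and 1459, with all of set 1 above, a ratio of 1.16.

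Hoxb3 (span 96307101 to 96347930) carried 22 regions, which summed to 16236, 16345 and 15880 in set 1 and to 14469, 15020 and 13954 in set 2, a ratio of 1.12 (1.06 to 1.17 over pairs) without overlap. Set 1 was the higher one in 16 of these regions, set 2 in the other 6, and the longest is the one shared with Hoxb5. Besides those at Hoxb4, the set 2 regions of Hoxb3 were 4. The region at 96310301 to 96310700 held 120, 162 and 151 in set 1 and 191, 174 and 177 in set 2, and that at 96337301 to 96338350 held 509, 509 and 380 against 541, 531 and 581. In both the sets were apart. At 96314401 to 96315150 the values were 208, 252 and 193 against 286, 193 and 280, and at 96324301 to 96324700 they were 166, 148 and 177 against 241, 183 and 172. Both of these overlapped.

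Hoxb2 (span 96351632 to 96354020) had the highest ratio of the 10 genes, just above Hoxb8. It summed to 2854, 2726 and 2963 in set 1 and 2435, 2432 and 2386 in set 2, a ratio of 1.18 (1.12 to 1.24 over pairs). This rank depended on the flanks of 2 kb. With spans alone, Hoxb8 stayed at 0.23 on the log2 scale, and Hoxb2 fell from 0.24 to 0.19. Its longest region, 5800 bp that begin beyond the gene (96354351 to 96360150), held 1796, 1768 and 1991 against 1585, 1504 and 1536. Over the end of the gene span a region of 600 bp (96353751 to 96354350) was higher in set 2, with 206, 223 and 203 against 189, 144 and 175 in set 1, and without overlap.

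Hoxb1 (span 96365746 to 96368254) was the other gene with overlapping sets. It summed to 1329, 1418 and 1544 in set 1 and 1546, 1330 and 1192 in set 2, a ratio of 1.05 (0.860 to 1.30 over pairs). Without the lowest library, the third of set 2, the log2 ratio turned from 0.08 to -0.01. Most of these values sit in 1 region of 4850 bp over the gene and its promoter (96363201 to 96368050), with 1256, 1303 and 1428 against 1383, 1180 and 1123. The short region at the window's edge (96368051 to 96368450) had 73, 115 and 116 against 163, 150 and 69. With 1 further region outside the window within 2 kb, the ratio was 1.08 and the sets still overlapped.

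Counted together, 8 of the 10 genes had every set 1 library above every set 2 library (80.0%, against 59.1% of the 6832 protein-coding genes with listed regions). The ratios of all 10 ranged from 1.05 to 1.18. With libraries rescaled to equal sums only Hoxb4 was apart, and there set 2 was above. The share of all genes that are apart after rescaling is not given here. Neighbouring members share regions and are not independent.

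**Figure D2:**
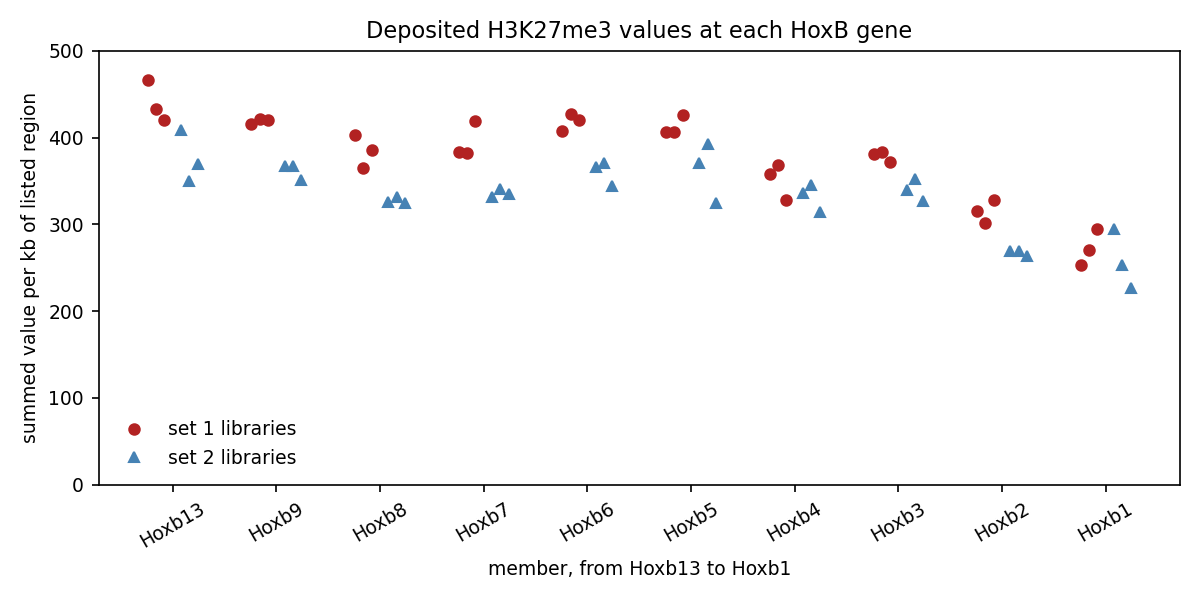
Summed value per kb of listed region for each of the 10 genes, as 3 red circles (set 1) and 3 blue triangles (set 2). Circles lie above triangles at 8 genes and mix with them at Hoxb4 and Hoxb1, and Hoxb2 and Hoxb1 have the lowest values in each library.

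Among the genes, the mean level of the mark per kb of listed region was highest at Hoxb13, the most posterior, and lowest at Hoxb1, the most anterior. Averaged over the 6 libraries it was 408 at Hoxb13, 390 at Hoxb9, 389 at Hoxb6, 388 at Hoxb5, 365 at Hoxb7, 359 at Hoxb3, 356 at Hoxb8, 341 at Hoxb4, 291 at Hoxb2 and 265 at Hoxb1. Hoxb2 and Hoxb1 held the lowest 2 places in 6 of 6 libraries, and Hoxb1 was below Hoxb2 in 5 of 6. Hoxb13 was first in 4 libraries and Hoxb5 in 2. In between, the order was not stable: Hoxb9 exceeded Hoxb6 in 3 of 6 libraries, Hoxb6 exceeded Hoxb5 in 3, Hoxb7 exceeded Hoxb3 in 3 and Hoxb8 exceeded Hoxb4 in 3. Unlisted stretches carry no value, so these levels describe the covered part of each gene, from 45.6% of the span of Hoxb2 to 100% of those of Hoxb13, Hoxb5 and Hoxb1.

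The interval between Hoxb13 and Hoxb9 carried the mark as well, at 302 per kb over 66.3% of its length, against 351 per kb over 83.2% of the stretch from Hoxb9 to Hoxb1. The lowest levels of the cluster lay inside this interval. From 20 to 60 kb beyond the Hoxb13 end, steps of 10 kb held 222 to 250 per kb, below the 265 of Hoxb1. The 30 regions of the interval summed to a ratio of 1.14 (1.11 to 1.18 over pairs), and the 40 regions of the other stretch to 1.13 (1.10 to 1.17). The highest ratio of the cluster lay here, in 1 region of 100 bp (96220001 to 96220100) with values of only 13, 19 and 18 (set 1) and 6, 10 and 7 (set 2). In steps of 10 kb, the values of a region being split by overlap, the ratio ran from 0.984 to 1.27, and the sets were apart with set 1 higher in 11 of 18 steps and overlapped in 7. The highest step lay 20 to 30 kb from the Hoxb13 end and the lowest 60 to 70 kb from it, just before Hoxb9. Mir196a-1, which lies near that low step and encodes a repressor of Hoxb8 mRNA, summed with 2 kb on each side to 1926, 2054 and 2144 in set 1 and 1971, 2053 and 2044 in set 2, a ratio of 1.01 with overlap. A dip also fell 120 to 130 kb along, at the start of Hoxb4. Mir10a, in this step, summed to 1023, 1050 and 893 against 1101, 1085 and 1054, and here all of set 2 lay above set 1 (ratio 0.915, 0.811 to 0.996 over pairs). These sums rest on 3 regions that Hoxb4 shares. The region that holds the microRNA itself (96316651 to 96317400) was higher in set 1, with 316, 368 and 303 against 321, 257 and 275 and with overlap, and the pair beside it, given above for Hoxb4, were higher in set 2. The other 7 noncoding genes of the window, mostly long noncoding RNAs, had ratios of 1.05 to 1.18. The sets were apart at 4 of them with set 1 above, as at 59.1% of protein-coding genes with listed regions. Several share regions with the members and are not independent of them, and Hoxb5os has the same 8 regions and sums as Hoxb6.

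The 19 regions higher in set 2 were short, and most of them abutted a region higher in set 1. Their median length was 600 bp, against 1850 bp for the 52 others, and they covered 13.8 kb against 119 kb. Of the 19, 15 abutted one with no gap, 8 of these on both sides, and the other 4 abutted none. In set 1 the value per kb in these 15 had a median of 0.746 of that in the abutting regions, and in set 2 of 1.19. In 4 of the 15, at Hoxb9, Hoxb6, Hoxb3 and the start of Hoxb4, the value per kb was lower than in the abutting regions in both sets. In the one at Hoxb9 it was 208 in set 1 against 436 beside it, and 314 in set 2 against 380. Regions were listed by direction, so a change of direction at a shared edge is part of how they were drawn.

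**Figure D3:**
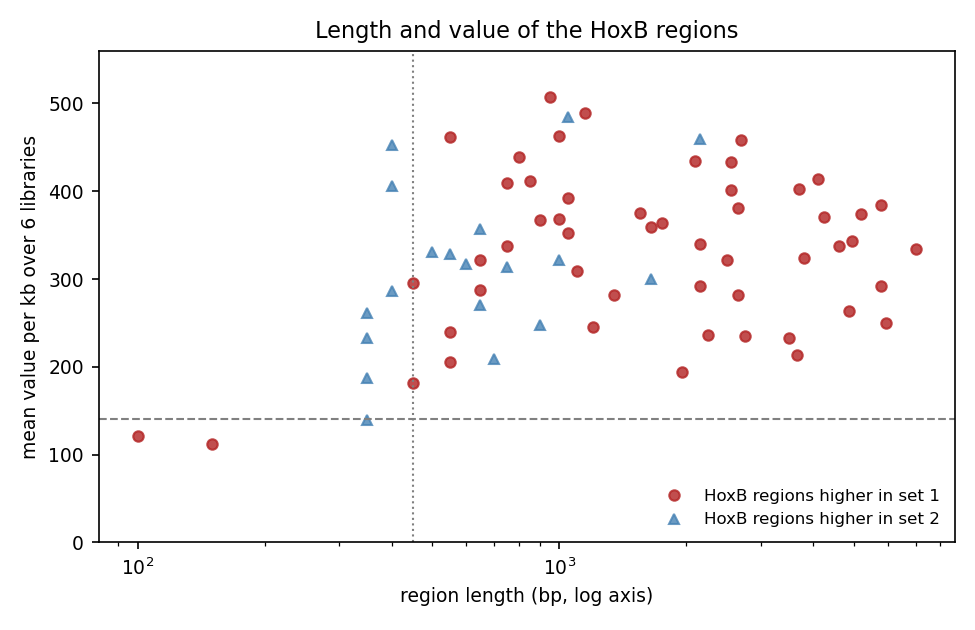
Length (log axis) and mean value per kb over the 6 libraries of each of the 71 HoxB regions, circles where set 1 was higher and triangles where set 2 was, with the medians of the whole list as a dotted line (450 bp) and a dashed line (141 per kb). The triangles lie at 350 to 2150 bp and the circles reach 7000 bp, and all but 3 points stand above the dashed line.

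The sign at the cluster depended on the scaling. When each library was rescaled to the same sum over all listed regions, the libraries held 1128, 1130 and 1175 (set 1) and 1186, 1144 and 1135 (set 2) parts per 1000000 of the listed total. Of the 10 genes 6 then stayed higher in set 1, and Hoxb5, Hoxb4, Hoxb3 and Hoxb1 turned. At Hoxb4 the rescaled libraries were apart, with 68.6, 70.1 and 65.7 parts per 1000000 in set 1 and 75.4, 74.7 and 70.7 in set 2, and at the 9 others the sets overlapped. Regions with all of set 1 above numbered 3 after this rescaling and those with all of set 2 above 14. Shares over all listed regions or genes under this scaling are not given here. These counts therefore cannot be set against the list, and no lean of the cluster is read from them. No source used here says whether the deposited values were already scaled for depth or corrected for the inputs, and a difference in DNA dosage cannot be told apart from one in the mark.

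The other Hox clusters had ratios apart from that of HoxB. HoxC summed to a ratio of 2.03 (1.94 to 2.12 over pairs), HoxD to 1.53 (1.39 to 1.73) and HoxA to 0.963 (0.919 to 1.01), and these ranges do not overlap that of HoxB. The difference between clusters was not tested. Per kb of listed region HoxB had the highest value, 334, against 269 in HoxA, 228 in HoxC and 163 in HoxD, and listed regions covered 76.2% of HoxB, 86.8% of HoxC, 20.7% of HoxA and 9.96% of HoxD. Of the 21 paralogues of the 10 genes in the other clusters 10 carried regions, against 31.2% of all protein-coding genes, and 8 of them were higher in set 1, against 69.3% of all such genes with regions. Their sums had a median log2 ratio of 0.54, against 0.21 for the HoxB genes and 0.37 over all protein-coding genes with regions. Hoxb4 and Hoxc4, paralogues of 1 group, both stood near the low end of their clusters, while Hoxa4 and Hoxd4 of the same group carried no region. Hoxc4 summed to 3908, 3998 and 3730 in set 1 and 3177, 3517 and 3408 in set 2, a ratio of 1.15. Of the Hox genes outside the cluster Hoxc4 was also the most like HoxB over the 6 libraries, with a root mean square difference of 0.06 in log2 value relative to the mean, followed by Hoxa10 (0.10) and Hoxd13 (0.12).

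**Figure D4:**
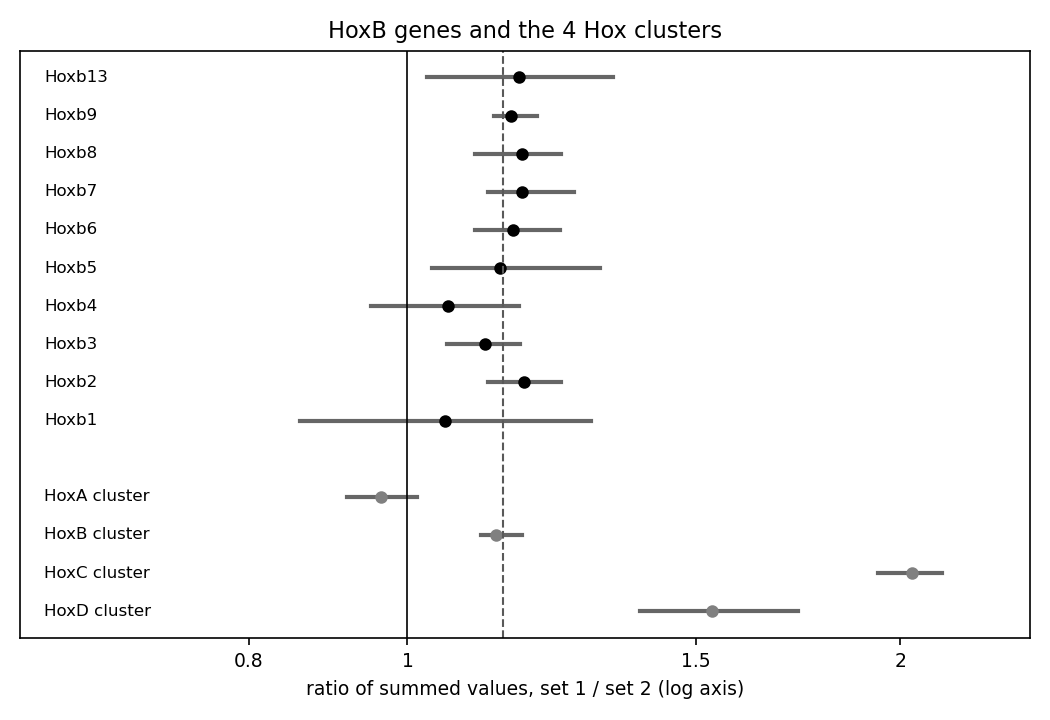
Ratio of summed values, set 1 over set 2 (log axis), for the 10 HoxB genes (black) and the 4 Hox clusters (grey), with lines from the lowest to the highest of the 9 library pairs and a dashed line at the ratio of the whole list (1.14). Lines of Hoxb4 and Hoxb1 cross 1, and the 10 genes lie between HoxA (0.963) and HoxD (1.53).

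Genes for the partners and inputs of the Hox genes were looked up in the list as well. Of 9 genes for Hox cofactors of the Pbx, Meis and Pknox families, which bind DNA together with Hox proteins, 2 carried regions. That is 22.2%, against 31.2% of all protein-coding genes. Both were higher in set 2, as were 30.7% of all protein-coding genes with regions. Pknox2 summed to a ratio of 0.771 (0.679 to 0.854 over pairs) over 88 regions and Meis3 to 0.671 (0.490 to 0.950) in a single region. Among 11 upstream regulators and genes of retinoic acid signalling, the signal that opens the anterior HoxB genes in the embryo, 5 carried regions (45.5%). Of these 5, 3 were higher in set 1, against 69.3% of all genes with regions. Cdx1, a regulator of central Hox genes, had 1464, 1381 and 1431 in set 1 and 214, 216 and 181 in set 2, a ratio of 7.0 (6.39 to 8.09 over pairs). Rarb, a retinoic acid receptor gene, stood at 2.29 (1.73 to 3.19 over pairs), and Cyp26b1, which degrades retinoic acid, at 2.65 (2.06 to 3.27). Cdx2, a paralogue of Cdx1, stood at 0.887 (0.810 to 0.990).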

How the data were processed

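The 6 H3K27me3 libraries (3 with a control and 3 with an NNMT construct) and 1 input for each construct are described by a single headerless list of regions. Names in the submitters' processing notes were CASAVA, Trimmomatic 0.36, BWA 0.7.17 and GRCm38. Per the labels' protocols, cells were fixed with 1% formaldehyde and chromatin was cut with micrococcal nuclease. No source used here names the program that listed the regions, its scaling, or how it treated the inputs. Each deposited cell holds 6 whole-number values without sample names and what appears to be the authors' −log10 p-value. Since the values may be rescaled, they were kept out of count models. The highest p in the list is 0.1, so its regions had been chosen for a difference, and the p was otherwise ignored.

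Values were summed per library over regions (Python 3.11.15, pandas 2.3.3; 1-based coordinates). Log2 ratios are of summed values plus a pseudocount of 1. Gene spans, promoters and microRNAs came from RefSeq GRCm38.p6. Summing and assignment were tested on simulated data. The members and lists were chosen with earlier results of these data known. By rule, the text names all 10 genes, the longest region of each, the regions with the highest and lowest ratio among those with a summed value of at least 60, and each such region higher in set 2 that touches a gene. Regions named otherwise, the 10 kb steps and the limit of 1000 were chosen after the values were seen. Rescaling, flanks, filters and left-out libraries were tried as alternatives.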

Additional observations from a re-analysis of the deposited data

How the results depend on the processing

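The ratio of the window kept its direction, at 0.16 to 0.19 on the log2 scale when 1 library was left out, and in every other alternative except rescaling. With libraries rescaled to equal sums it was -0.0131, and with sets rescaled -0.0136. Rescaling the libraries or the sets gave 30 regions higher in set 2 in both cases, 3 and 4 regions with all of set 1 above, 14 regions in both with all of set 2 above, 6 genes higher in set 1 in both, and a median log2 ratio over the genes of 0.0194 and 0.0186 in place of 0.21. By construction rescaling takes the shift of the whole list, 0.19, from each log2 ratio. Shares over all listed regions or genes after rescaling are not given here, so these counts cannot be set against the list. The genes that rescaling turned were Hoxb5 (-0.00372 and -0.00629), Hoxb4 (-0.111 in both), Hoxb3 (-0.0359 and -0.0365) and Hoxb1 (-0.115 and -0.117).

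With the authors' p under 0.05, 11 regions higher in set 2 were left of 19, and 11 with a summed value of at least 1000, a limit added after the data were seen; both leave fewer regions. Hoxb4 turned to -0.27 with its promoter window alone, and the cause was not tested. Hoxb1 turned to -0.00771 without the third library of set 2 and ranged up to 0.18 when others were left out. Leaving out 1 library in turn gave 9 to 10 genes higher in set 1, a median over genes of 0.19 to 0.23, 29 to 37 regions with all of set 1 above and 8 to 10 with all of set 2 above, since fewer libraries have to be apart. The split of 52 regions towards set 1 and 19 towards set 2 did not change in number then. Hoxb9 moved from 0.21 to 0.15 with a flank of 5 kb, and to 0.174 with its span alone or with region midpoints inside. These values lie below its range over library pairs, which begins at 0.176. Of 132 values for single genes outside rescaling, 127 kept their direction and stayed within the range over library pairs. A value with 1 library left out cannot leave that range, and the filter at a summed value of 60 removed no region. This count is therefore no measure of stability. No paired analysis was possible because the values carry no replicate number. The promoter window could be tried for 3 genes only.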

Other observations

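The mark did not end at the edges of the cluster. In the 100 kb below Hoxb13, 48 regions covered 68.5% of the sequence at 284 per kb and library, and their sums were 1.22-fold higher in set 1 (1.13 to 1.30 over library pairs) in the authors' deposited table. In the 100 kb above Hoxb1, 48 regions covered 73.6% at 263 per kb, with a ratio of 1.23 (1.13 to 1.32). Both ratios were above the 1.13 of the cluster, and the pair ranges overlapped. Of the 5 nearest protein-coding genes on each side, Ttll6 and Calcoco2 below and Skap1 above carried regions, at 1.33-fold, 1.31-fold and 1.30-fold towards set 1, and the other 7 carried none. Of all protein-coding genes 31.2% carried regions, and the median ratio of those was 1.29. Neither the share with regions nor these ratios therefore set the flanking genes apart. Skap1, a T cell adaptor gene, held 79 regions over 70.0% of its extended span. Beyond it Snx11, Cbx1, Nfe2l1 and Copz2 were without a listed region, as were Atp5g1, Ube2z and Snf8 on the other side. Absence from the list does not separate equal marking from no marking.

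Of 11 genes that fibroblasts use, among them Col1a1, Vim and Thy1, 1 (Fap) carried a region, or 9.09%, against 31.2% of all protein-coding genes. This list of differences cannot check the labelled cell type further. The Nnmt locus carried 23 regions and summed to a ratio of 0.831 (0.753 to 0.911 over pairs), which does not test the construct.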
